A study of Mus musculus with 18 samples.

Results

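The 9 genes described here encode proteins of the adherens junction and the desmosome: the classical cadherins Cdh1, Cdh2 and Cdh3, the catenins Ctnna1, Ctnnb1 and Ctnnd1, plakoglobin (Jup), desmoplakin (Dsp) and plakophilin 2 (Pkp2). They were taken by symbol from a table of 18909 genes, and all 9 were found in it. The set was chosen by one measured value beside the genes' roles, the lower Jup level in B16F10 libraries labelled MRTFB than in their controls, so that contrast is given below as a description with no test.

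RNA was sequenced from 2 mouse tumour lines of the C57BL6 strain, E0771 mammary tumour cells and B16F10 melanoma cells. Each line carried MRTFA, MRTFB or no insert in the retroviral vector pRetrox (6 groups of 3 libraries), and every group, controls included, received doxycycline at 500 ng/mL for 48 h to induce the transgene. Both proteins switch on genes together with serum response factor, in step with the state of actin, and the study set out to find the genes that either one induces in these lines. The labels do not say whether replicates were separate cultures, so p-values measure the spread between these libraries, which may be technical. They also do not say whether a line was 1 clone.

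Classical cadherins hold neighbouring cells together through their outer parts. Inside the cell beta-catenin or its relative plakoglobin binds the cadherin tail, p120-catenin (Ctnnd1) binds nearer the membrane and keeps the cadherin at the surface, and alpha-catenin links the complex to actin. Plakoglobin also enters desmosomes, where it and plakophilins join desmosomal cadherins to desmoplakin and so to intermediate filaments, while beta-catenin outside junctions carries Wnt signals to the nucleus.

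Values are scaled reads: reads per gene divided by a size factor of the library, as the authors deposited them. Libraries held 27607055 to 37116655 reads. The targeted genes, listed as Mkl1 (Mrtfa) and Mkl2 (Mrtfb), were checked first. In E0771, Mkl1 averaged 13728 ± 2454 with MRTFA and 1349 ± 202 in controls, and Mkl2 averaged 2158 ± 87.9 with MRTFB and 1344 ± 106 in controls (SD, n = 3 each), and both passed the test. In B16F10 neither was called: Mkl1 averaged 1205 ± 266 in libraries labelled MRTFA and 1015 ± 83.3 in controls, and Mkl2 1886 ± 128 in libraries labelled MRTFB and 1501 ± 330 in controls. Mkl2 also had 1715, 1574 and 1938 in the B16F10 libraries labelled MRTFA, against 1290, 1333 and 1881 in controls. Acta2, a known target of these coactivators, was nevertheless at 37313 to 72885 in the B16F10 libraries labelled MRTFA, 2146 to 28018 in those labelled MRTFB and 176 to 798 in controls. Its difference with MRTFB was not called (log2 difference 3.93, adjusted p = 0.159, limma). Summed over 10 melanocyte markers, the 9 E0771 libraries had 386 to 642 scaled reads and the 9 B16F10 libraries 575497 to 776963, and over 9 mammary epithelial markers E0771 had 5853 to 17064 and B16F10 43.8 to 213. Krt5 and Elf5, of the mammary list, were at 0 in all E0771 controls.

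Between the control groups, Cdh1 and Cdh2 were both lower in E0771 than in B16F10, and Pkp2 was higher. Genes were compared with limma on log2(scaled reads + 1), among genes at 10 or more in at least 3 fitted libraries, and a call needed a p under 0.05 after Benjamini-Hochberg adjustment. Of the 9 genes, 8 were tested between E0771 and B16F10 controls, 1 was higher in E0771 and 5 were lower, against 70.2% of all genes called (33.4% higher, 36.8% lower). Cdh2 (N-cadherin) had 1.01, 1.0 and 1.87 scaled reads in E0771 controls, against 6968, 7196 and 8334 in B16F10 controls. Cdh1 (E-cadherin) had 4.03, 5.01 and 4.67 in E0771 controls, against 74.1, 66.2 and 27.7 in B16F10 controls. Neither gene overlapped between the lines, and the log2 differences were -11.69 for Cdh2 (adjusted p = 1.21e-15, limma) and -3.24 for Cdh1 (adjusted p = 1.75e-07, limma). Cdh1 and Cdh2 are among the 5 lower genes. They passed the filter through the B16F10 libraries only, where they are high, so their calls add no support beyond these values. Pkp2 lay the other way, at 2213, 2282 and 3250 scaled reads in E0771 controls against 0.962, 0.974 and 5.73 in B16F10 controls, a log2 difference of 9.74 (adjusted p = 3.44e-12, limma).

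The catenins were present in both lines. E0771 controls had less beta-catenin RNA (log2 difference -2.05, 95% interval -2.25 to -1.86), less Ctnnd1 (-1.01, -1.18 to -0.83) and less Ctnna1 (-0.31, -0.46 to -0.16) than B16F10 controls, with adjusted p of 3.13e-12, 7.00e-09 and 0.000709 from limma. Jup was not called (-0.55, -1.06 to -0.04, adjusted p = 0.0529, limma), and it was called with edgeR (adjusted p = 0.0402), without E0771 control replicate 2 (adjusted p = 0.0123) and without B16F10 control replicate 3 (adjusted p = 0.00719). These B16F10 controls also served in the contrast for which Jup was chosen, so nothing is read from its calls here. Dsp was close to 0 in both control groups and not called (0.57, -0.87 to 2.01), and Cdh3 was below the level for testing.

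Per kilobase of exon, the sum of Cdh1, Cdh2 and Cdh3 averaged 1.52 ± 0.463 in E0771 controls and 942 ± 85.2 in B16F10 controls (SD, n = 3 each), while the sum of the 4 catenin genes, Jup included, averaged 4550 ± 175 in E0771 controls and 13441 ± 794 in B16F10 controls. Of 10 further cadherin genes in the table, Cdh13, which lacks the catenin-binding tail, was the highest in E0771, at 211 ± 22.4 per kb in controls, followed by Cdh24 at 15.5 ± 3.94. In B16F10 controls Cdh19 reached 1109 ± 183 per kb, beside Cdh2 at 929.7 ± 90.7. Cdh13, Cdh19 and Cdh24 were picked out after their values were seen.

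**Figure D1:**
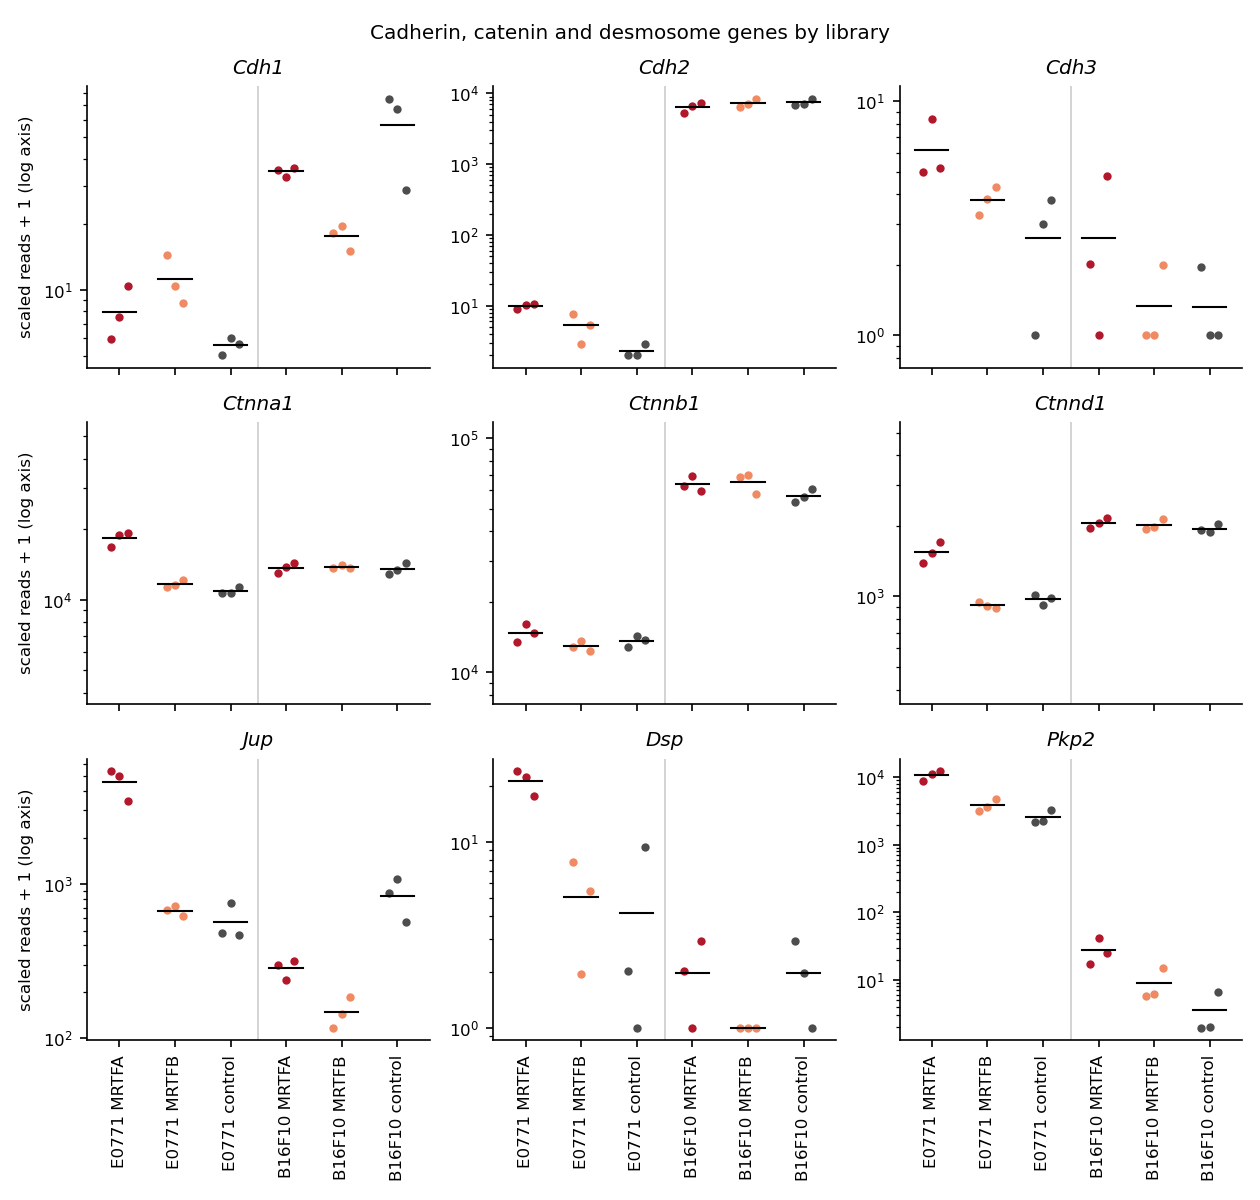
Scaled reads + 1 (log axis) of the 9 genes in each of 18 libraries, with points for libraries and bars for group means, E0771 left of the grey line and B16F10 right of it. Jup is highest in E0771 with MRTFA (3439 to 5379) and lowest in B16F10 labelled MRTFB (116 to 184), and Cdh2 is at 5362 or more in every B16F10 library and at 9.40 or less in every E0771 library.

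Jup, plakoglobin, was called with MRTFA in both lines, in opposite directions. In E0771 it had 5379, 4983.5 and 3439 scaled reads with MRTFA, against 478, 751 and 470 in controls. The lowest MRTFA library was above the highest control library. The mean was 8.12 times that of controls, with a log2 difference of 3.03 (SE 0.20, 95% interval 2.58 to 3.48, adjusted p = 1.49e-06, limma), and the gene stayed called when any 1 of the 6 libraries was left out. With MRTFB, Jup had 673, 716 and 617 in E0771, inside the range of the controls, and was not called (0.27, 95% interval -0.18 to 0.72). Set against MRTFA directly, MRTFB libraries were lower by -2.76 on the log2 scale (adjusted p = 3.36e-06, limma).

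In B16F10 Jup lay the other way. The libraries labelled MRTFA had 298, 237 and 317 scaled reads, against 869, 1075 and 567 in controls. Every labelled MRTFA library was below every control. The mean was 0.339 of the control mean, with a log2 difference of -1.52 (SE 0.24, 95% interval -2.06 to -0.98, adjusted p = 0.0101, limma). With replicate number as a block the adjusted p was 0.00314 (limma). The fits without 1 library had no block. The call was lost without MRTFA replicate 1 (adjusted p = 0.0903), MRTFA replicate 2 (adjusted p = 0.0902) or control replicate 1 (adjusted p = 0.0564), and these controls also served in the contrast for which Jup was chosen. In that contrast the libraries labelled MRTFB had 116, 142 and 184, a log2 difference of -2.47 from controls. They lay below all labelled MRTFA libraries too. Among all 13517 genes tested there, 0.126% were called (0.0148% higher, 0.111% lower).

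The effect of MRTFA on Jup differed between the lines by 4.55 on the log2 scale, E0771 minus B16F10 (95% interval 3.82 to 5.27, adjusted p = 1.50e-07, limma on all 18 libraries), and this difference stayed called without any 1 of the 12 libraries compared. It uses the B16F10 controls that also served in the contrast for which Jup was chosen, so it is not independent of that choice. In order of mean level the groups ran from E0771 with MRTFA (4600 ± 1025) through B16F10 control (837 ± 256), E0771 with MRTFB (669 ± 49.9) and E0771 control (566 ± 160) to B16F10 labelled MRTFA (284 ± 41.8) and B16F10 labelled MRTFB (148 ± 34.4). Neighbours among B16F10 control, E0771 MRTFB and E0771 control overlapped, and the other neighbours did not.

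The start region of Jup is shown with that of Acta2, the known target used as a scale, because serum response factor binds the CArG box. The sequences are RefSeq's on GRCm38.p6, the 250 bases before the annotated start, 5′ to 3′ on the gene's strand. Capitals mark a CArG box with at most 1 mismatch or the TEAD motif GGAATG.
Jup, chr11:100397791-100398040, minus strand: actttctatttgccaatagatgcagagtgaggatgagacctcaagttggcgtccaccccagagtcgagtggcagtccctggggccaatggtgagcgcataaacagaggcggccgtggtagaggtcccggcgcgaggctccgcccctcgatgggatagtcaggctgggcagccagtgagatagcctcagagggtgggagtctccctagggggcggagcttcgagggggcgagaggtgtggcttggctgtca
Acta2, chr19:34255374-34255623, minus strand: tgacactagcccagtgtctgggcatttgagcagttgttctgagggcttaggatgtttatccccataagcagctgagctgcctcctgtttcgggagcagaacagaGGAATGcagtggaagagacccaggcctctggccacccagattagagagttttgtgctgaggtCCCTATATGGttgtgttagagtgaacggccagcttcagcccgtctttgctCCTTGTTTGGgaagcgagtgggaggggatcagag
The Acta2 window held 2 CArG boxes with 1 mismatch each, beginning 84 and 34 bases before the start, and 1 GGAATG. The Jup window held none of these, and no E-box CAGGTG or AP-1 motif TGANTCA. Both strands were searched from 250 bases before to 50 after the start, and of 32851 such mouse windows 21.1% held a CArG box with at most 1 mismatch, 1.63% an exact one, 14.7% GGAATG, 20.2% CAGGTG and 7.81% TGANTCA. Of the other genes, Ctnnb1, Ctnnd1 and Dsp had windows in the table. None had a CArG box with at most 1 mismatch, and 1 CAGGTG began at base 4 of the Dsp transcript. A match or its absence describes these letters only.

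The cadherins themselves stayed low in E0771 in every group. Cdh2 had 7.97, 9.29 and 9.40 scaled reads with MRTFA and 6.75, 1.88 and 4.41 with MRTFB, against 1.01, 1.0 and 1.87 in controls. The MRTFA libraries were all above the controls, yet this rested on 27 reads against 4, a ratio of 6.81 with an exact 95% interval of 2.37 to 26.8 for counting error only. Cdh1 had 4.98, 6.50 and 9.40 with MRTFA and 13.5, 9.41 and 7.72 with MRTFB, against 4.03, 5.01 and 4.67 in controls. Cdh1 overlapped between MRTFA and control libraries and did not between MRTFB and control libraries (29 reads against 14, ratio 2.23, 1.14 to 4.57). Cdh3 (P-cadherin, known from basal epithelium) had 16 reads over the MRTFA libraries and 5 over the controls. None of the 3 passed the filter in E0771, so no test was made within that line.

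In B16F10 Cdh2 was the main member of the 3. It had 5362, 6607 and 7291 scaled reads in libraries labelled MRTFA and 6524, 7117 and 8394 in those labelled MRTFB, against 6968, 7196 and 8334 in controls. All groups overlapped. MRTFA differed from control by -0.23 on the log2 scale (95% interval -0.52 to 0.06, adjusted p = 0.697, limma), which was called only with replicate number as a block (adjusted p = 0.0402). MRTFB differed by -0.03.

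Cdh1 in B16F10 had 34.3, 32.1 and 35.3 scaled reads in libraries labelled MRTFA and 17.2, 18.6 and 14.0 in those labelled MRTFB, against 74.1, 66.2 and 27.7 in controls. Control replicate 3 lay apart from the other 2 and under the MRTFA libraries, so those groups overlapped (log2 difference -0.59, 95% interval -1.36 to 0.18, adjusted p = 0.722, limma). All MRTFB libraries lay below all controls, with a log2 difference of -1.58 and 50 reads against 174. The same control replicate had the lowest Jup of its group. Cdh3 had 0 to 3.81 scaled reads in the 9 B16F10 libraries and was not tested.

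Among the catenins, Ctnna1 and Ctnnd1 rose with MRTFA in E0771 and Ctnnb1 was not called. Ctnna1 had 16829, 18807 and 19162 scaled reads with MRTFA and 11336, 11593 and 12122 with MRTFB, against 10660, 10715 and 11365 in controls. Ctnnd1 had 1394, 1535 and 1706 with MRTFA and 942, 913 and 887 with MRTFB, against 1016, 913 and 981 in controls. For both genes the MRTFA libraries lay above all others and the MRTFB libraries overlapped the controls. The MRTFA differences were 0.74 for Ctnna1 (95% interval 0.57 to 0.91, adjusted p = 3.65e-05, limma) and 0.67 for Ctnnd1 (0.45 to 0.89, adjusted p = 0.000438, limma), and each stayed called without any 1 library. Against MRTFA, MRTFB was lower by -0.64 for Ctnna1 (adjusted p = 0.000119, limma) and by -0.75 for Ctnnd1 (adjusted p = 0.000216, limma).

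Ctnnb1 had 13483, 16095 and 14738 scaled reads with MRTFA and 12867, 13681 and 12294 with MRTFB in E0771, against 12866, 14344 and 13773 in controls. All groups overlapped, and the intervals allowed a log2 difference of -0.09 to 0.31 for MRTFA and of -0.27 to 0.12 for MRTFB. In B16F10 it had 62451, 68967 and 59637 in libraries labelled MRTFA and 68291, 69657 and 57607 in those labelled MRTFB, against 53566, 56134 and 60671 in controls, again with overlap (0.16, 95% interval -0.07 to 0.40, adjusted p = 0.769, limma, for MRTFA). Ctnna1 and Ctnnd1 in B16F10 were within 0.02 and 0.08 of controls with MRTFA (intervals -0.14 to 0.18 and -0.09 to 0.25). Their MRTFA effects differed between the lines by 0.72 (adjusted p = 5.89e-05, limma) and 0.58 (adjusted p = 0.00177, limma), each called without any 1 library. Exons of Ctnna1 overlap those of Lrrtm2, exons of Ctnnb1 those of Ulk4 and Mir7090, and exons of Ctnnd1 and Dsp those of predicted genes. The sources used here do not say how shared reads were counted.

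**Figure D2:**
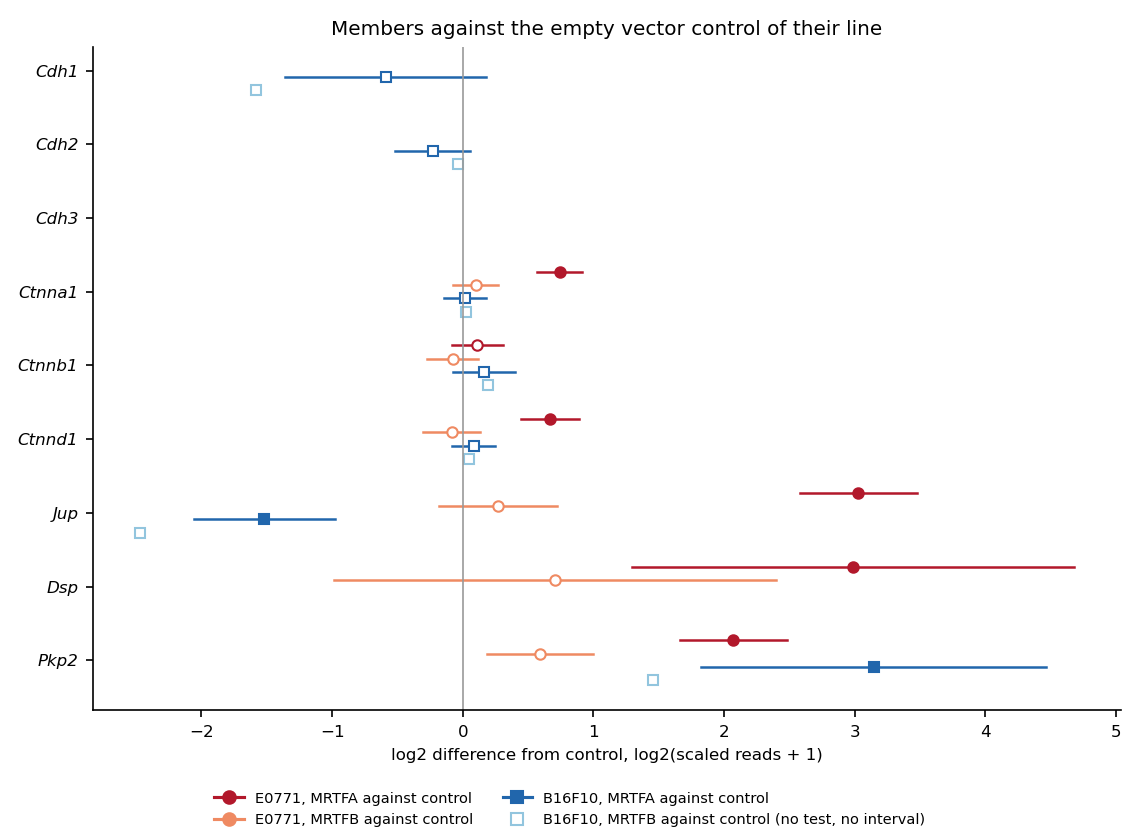
Fitted log2 difference from the empty vector control of the same line for each tested gene, with 95% intervals. Filled symbols were called at an adjusted p under 0.05, and B16F10 MRTFB is shown without test or interval. Jup lies at 3.03 in E0771 with MRTFA and at -1.52 in B16F10 labelled MRTFA.

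Plakoglobin and beta-catenin compete for the same place on cadherin tails, so their RNA is set side by side per kilobase of exon. Jup was 25.3 ± 6.69% of Ctnnb1 in E0771 with MRTFA and 4.16 ± 0.101% with MRTFB, against 3.33 ± 0.788% in controls (SD, n = 3 each). The MRTFA libraries had 32.2, 25 and 18.8%, all above the highest control at 4.22%. In B16F10 it was 0.364 ± 0.0779% in libraries labelled MRTFA and 0.187 ± 0.0635% in those labelled MRTFB, against 1.2 ± 0.406% in controls. Beta-catenin RNA exceeded plakoglobin RNA in all 18 libraries.

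**Figure D3:**
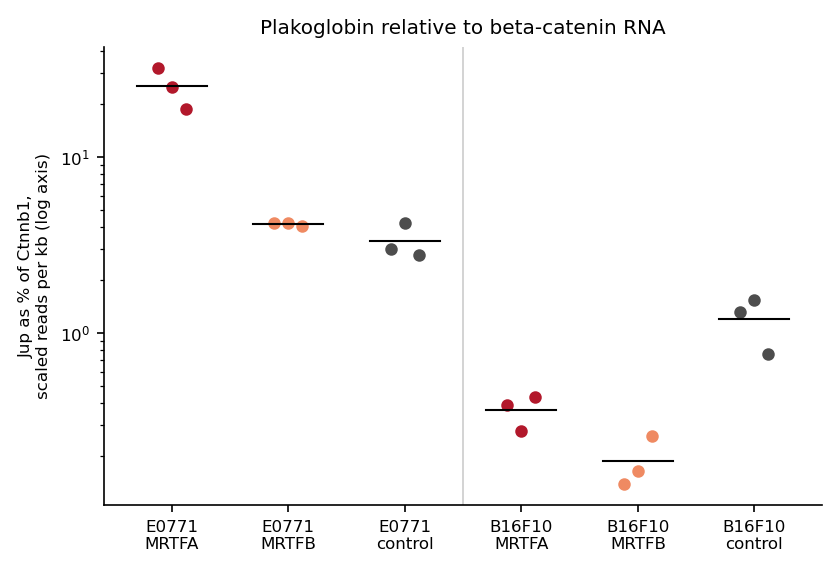
Jup as a percentage of Ctnnb1, both in scaled reads per kilobase of exon (log axis), with points for libraries and bars for group means. Values run from 18.8 to 32.2% in E0771 with MRTFA down to 0.137 to 0.258% in B16F10 labelled MRTFB.

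Of the desmosomal plaque genes, Pkp2, which anchors desmoplakin at the junction, was abundant in E0771. It had 8926, 11133 and 12301 scaled reads with MRTFA and 3206, 3685 and 4761 with MRTFB, against 2213, 2282 and 3250 in controls. The MRTFA libraries lay above all others, and the lowest MRTFB library lay just under the highest control. MRTFA gave a log2 difference of 2.07 (95% interval 1.66 to 2.48, adjusted p = 1.11e-05, limma) and a ratio of means of 4.18, called without any 1 library. MRTFB gave 0.59 (0.18 to 1.0), which was not called (adjusted p = 1.0, limma) and was called with replicate number as a block (adjusted p = 0.0228). Against MRTFA, MRTFB was lower by -1.48 (adjusted p = 0.000145, limma). Per kilobase of exon, Pkp2 averaged 2012 ± 320 with MRTFA and 482 ± 108 in controls, and Ctnna1 2843 ± 196 with MRTFA and 1699 ± 61.0 in controls.

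In B16F10 Pkp2 was near the limit of detection. It had 16.1, 41.4 and 23.8 scaled reads in libraries labelled MRTFA and 4.77, 5.18 and 14.0 in those labelled MRTFB, against 0.962, 0.974 and 5.73 in controls. The MRTFA libraries were all above the controls, with 81 reads against 8 and a log2 difference of 3.15 (95% interval 1.83 to 4.46, adjusted p = 0.0269, limma). The gene passed the filter through the MRTFA libraries only, and the call was lost without any MRTFA library or without control replicate 1 or 2 (adjusted p 0.107 to 0.183). The MRTFB libraries, at a log2 difference of 1.45, overlapped the controls. The MRTFA effect on Pkp2 was not called as different between the lines (-1.07, 95% interval -2.41 to 0.26, adjusted p = 0.253, limma), although it was without B16F10 control replicate 3 (-1.66, adjusted p = 0.0363).

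Dsp, which ties the desmosomal plaque to keratins, was scarce throughout. It had 22.9, 21.4 and 16.7 scaled reads in E0771 with MRTFA and 6.75, 0.941 and 4.41 with MRTFB, against 1.01, 0 and 8.41 in controls. The MRTFA libraries were above all others, on 62 reads against 10 in controls. The gene passed the filter only through the MRTFA libraries, and its log2 difference of 2.99 (95% interval 1.3 to 4.68, adjusted p = 0.0107, limma) was called in each of the 3 fits without 1 control library, while without an MRTFA library it was not tested. MRTFB against MRTFA gave -2.29 (adjusted p = 0.0410, limma), lost without MRTFB replicate 2 (adjusted p = 0.149) or 3 (adjusted p = 0.0570). In B16F10 Dsp had 3 reads in libraries labelled MRTFA, 0 in those labelled MRTFB and 3 in controls. In 1 library, 0 reads are compatible with at most 3, or 2.86 to 3.11 scaled reads in B16F10. Fewer cells expressing such a gene and less RNA per cell cannot be told apart in these bulk libraries.

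Counted over the set, 5 of the 6 genes tested in E0771 were higher with MRTFA and 0 lower, against 38.4% of all genes called there (20.3% higher), with a median log2 difference of 1.41 for the 6 and -0.02 for all 13189 genes. Dsp is among the 5 by way of the filter. With MRTFB in E0771 limma called 0 of 6, against 0.144% of all genes (0.136% higher, 0.00758% lower), while 1 of the 6 (Pkp2) had an unadjusted p under 0.05 and edgeR called 0. MRTFB against MRTFA had 5 of 6 lower, against 33.6% of all genes called (19.1% lower), Dsp again among the 5 by way of the filter. In B16F10 1 of 7 tested was higher and 1 lower in libraries labelled MRTFA, against 1.55% of all genes called (1.34% higher, 0.207% lower), with medians of 0.02 for the 7 and -0.01 for all genes. The higher gene, Pkp2, passed the filter through the MRTFA libraries only, and the lower one, Jup, was compared with the controls used in choosing it, so nothing is read from this count. The MRTFA effect was higher in E0771 for 5 of 8, against 21.1% of all genes called as different (12.6% higher, 8.55% lower). Beside Jup, Ctnna1 and Ctnnd1 these were Cdh2 (2.36, adjusted p = 0.000299, limma), which in E0771 rests on 27 reads with MRTFA and 4 in controls, and Dsp (2.98, adjusted p = 0.0369, limma), which edgeR did not call (adjusted p = 0.374). Dsp passed the filter here too through the E0771 MRTFA libraries only, so its call adds no support. The difference for Jup uses the B16F10 controls of the contrast for which it was chosen, so its call adds no independent support either.

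Markers of several cell types moved in the same libraries, mammary keratins among them. Krt8 averaged 15549 ± 1021 scaled reads in E0771 with MRTFA and 6720 ± 1053 in controls (log2 difference 1.22, adjusted p = 0.000160, limma), and Krt7 averaged 330 ± 23.2 with MRTFA and 87.5 ± 11.1 in controls (1.91, adjusted p = 1.14e-05, limma). Summed over 9 mammary markers, E0771 libraries had 15038 to 17064 with MRTFA and 6037 to 9324 with MRTFB, against 5853 to 7931 in controls. Most of each sum was Krt8. Of the 6 tested, 3 rose with MRTFA, against 38.4% of all genes called (20.3% higher). Muc1 was the other of the 3, and it passed the filter through the MRTFA libraries only. Krt7 also rose with MRTFB (1.18, adjusted p = 0.0306, limma). In B16F10, Krt19 had 67 reads over the libraries labelled MRTFA and 0 over controls, at least 23.2-fold higher against 3 reads over the group. Krt19 passed the filter through the libraries labelled MRTFA only, so its call adds no support. It was the 1 gene called of 5 mammary markers tested there, against 1.55% of all genes. Of 3 keratinocyte markers in the table, sums were 20.4 to 32.4 with MRTFA and 16.8 to 22.2 in controls of E0771. Other markers in E0771 were lower with MRTFA: Mitf of the melanocyte list (-0.95, adjusted p = 0.000134, limma), Lyz2 of the immune list (-0.69, adjusted p = 0.0395, limma), and Pdgfra (-1.33, adjusted p = 2.15e-05, limma) and Egfl7 (-0.86, adjusted p = 0.0020, limma) of the endothelial and fibroblast list, where Col6a3 was higher (2.02, adjusted p = 0.00619, limma). Summed over 7 endothelial and fibroblast markers, E0771 libraries had 2327 to 2476 with MRTFA, against 2828 to 3338 in controls, over 10 melanocyte markers 386 to 401 with MRTFA, against 562 to 642 in controls, and over 4 immune markers 157 to 251 with MRTFA, against 192 to 363 in controls. With MRTFA in E0771, limma called 1 of 4 tested melanocyte markers and 1 of 4 immune markers, both lower. Of 5 endothelial and fibroblast markers 2 were lower and 1 higher, where 18.1% of all genes were lower and 20.3% higher. The part of these markers in the differences above was not tested.

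Other genes of junctions and of beta-catenin signalling came from lists written with earlier results of these data known. In E0771 with MRTFA, 26 of 76 tested genes on 8 lists were higher and 10 lower (median log2 difference 0.12, against -0.02 for all genes), with 38.4% of all genes called (20.3% higher, 18.1% lower). Of the 26, 7 passed the filter through the MRTFA libraries only, where they are high, so their calls add no support. With MRTFB in E0771 limma called 0 of the 76, 7 had an unadjusted p under 0.05 and edgeR called 0. In B16F10, 1 of 63 (Vcl) was called in libraries labelled MRTFA, a share of 1.59% against 1.55% of all genes. With replicate number as a block, 2 were higher and 3 lower.

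Cadherins, catenins and desmosome genes outside the 9 were mixed in E0771 with MRTFA, where 38.4% of all genes were called (20.3% higher, 18.1% lower). Limma called none of 4 tested cadherins (0 at an unadjusted p under 0.05, and 0 by edgeR), and of 5 catenin-related genes 1 was lower, the alpha-catenin-like Ctnnal1 at 892 ± 65.9 with MRTFA and 2173 ± 258 in controls (-1.28, adjusted p = 4.80e-05, limma). Of 4 desmosome genes 2 rose and 2 fell, and both that rose passed the filter through the MRTFA libraries only. Of these Pkp1 averaged 32.0 ± 7.21 with MRTFA and 2.97 ± 1.79 in controls, and the desmosomal cadherin Dsg4 had 43 reads with MRTFA and 0 in controls, at least 14.5-fold higher. Pkp3 fell to 64.4 ± 12 with MRTFA, against 169 ± 49.2 in controls (-1.34, adjusted p = 0.00303, limma), and Pnn, a desmosome-associated protein that also works in splicing, had a difference of -0.40 (adjusted p = 0.0145, limma).

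Among 18 linkers between the junction and actin, 7 were higher and 3 lower in E0771 with MRTFA (median log2 difference 0.01), 2 of the 7 by way of the filter. Of all genes there, 38.4% were called (20.3% higher, 18.1% lower). Vcl, vinculin, which binds alpha-catenin under tension, averaged 20447 ± 2199 with MRTFA and 3556 ± 1077 in controls (2.57, adjusted p = 1.0e-05, limma). Lima1, an actin-binding partner of alpha-catenin, averaged 13008 ± 702 with MRTFA and 1753 ± 329 in controls (2.91, adjusted p = 3.53e-07, limma). The adaptor Sorbs2, which passed the filter through the MRTFA libraries only, had 113 reads with MRTFA against 3 in controls (ratio 38, exact 95% interval 12.7 to 187). In B16F10 Vcl averaged 3701 ± 806 in libraries labelled MRTFA and 1776 ± 253 in controls (1.04, adjusted p = 0.0167, limma), and limma called none of the other 15 tested linkers. Of the 16, 4 had an unadjusted p under 0.05, and edgeR called 1. Limma called 1.55% of all genes in that comparison.

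Of 12 transcription factors and splicing regulators of the epithelial and mesenchymal states, 7 were higher and 1 lower in E0771 with MRTFA (median 0.69), against 38.4% of all genes called and 20.3% higher, the shares beside which the counts that follow stand too. The higher ones were the Cdh1 repressors Snai1, Snai2, Zeb1 and Twist1 and the epithelial regulators Ovol1, Esrp2 and Elf3. Zeb1 averaged 4020 ± 283 with MRTFA and 1944 ± 106 in controls (1.05, adjusted p = 5.99e-06, limma). Snai2 averaged 172 ± 26.7 with MRTFA and 16.8 ± 17.8 in controls (3.73, adjusted p = 0.00193, limma). Twist1 had a difference of 0.61 (adjusted p = 0.0149, limma). Esrp2, an epithelial splicing factor, averaged 161 ± 2.41 with MRTFA and 43.6 ± 5.74 in controls (1.87, adjusted p = 3.87e-05, limma). Ovol1 had 138, 174 and 218 scaled reads with MRTFA, against 74.5, 94.1 and 121 in controls. Elf3 had 168, 141 and 319 with MRTFA, against 25.2, 23.0 and 108 in controls. Of 15 genes that degrade beta-catenin or act with it in the nucleus, 4 were higher and 1 lower, among them Amer1 (0.76), Csnk1a1 (0.64), Bcl9 (0.45) and Gsk3a (-0.25). Of 8 Wnt target genes 2 were higher, Axin2 (1.0, adjusted p = 0.0238, limma) and Nkd1, which averaged 16.6 ± 5.93 with MRTFA and 3.57 ± 0.958 in controls and passed the filter through the MRTFA libraries only. Ccnd1 was lower at 7894 ± 406 with MRTFA and 11511 ± 196 in controls (-0.55, adjusted p = 0.000159, limma). Of 11 tight junction genes, 4 were higher, among them Cldn12 (0.44), and 1 lower. Cgn and Tjp3, also among the 4, passed the filter through the MRTFA libraries only, with means of 33.9 ± 11 and 27.0 ± 3.77 with MRTFA, against 2.85 ± 3.20 and 6.52 ± 4.50 in controls.

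**Figure D4:**
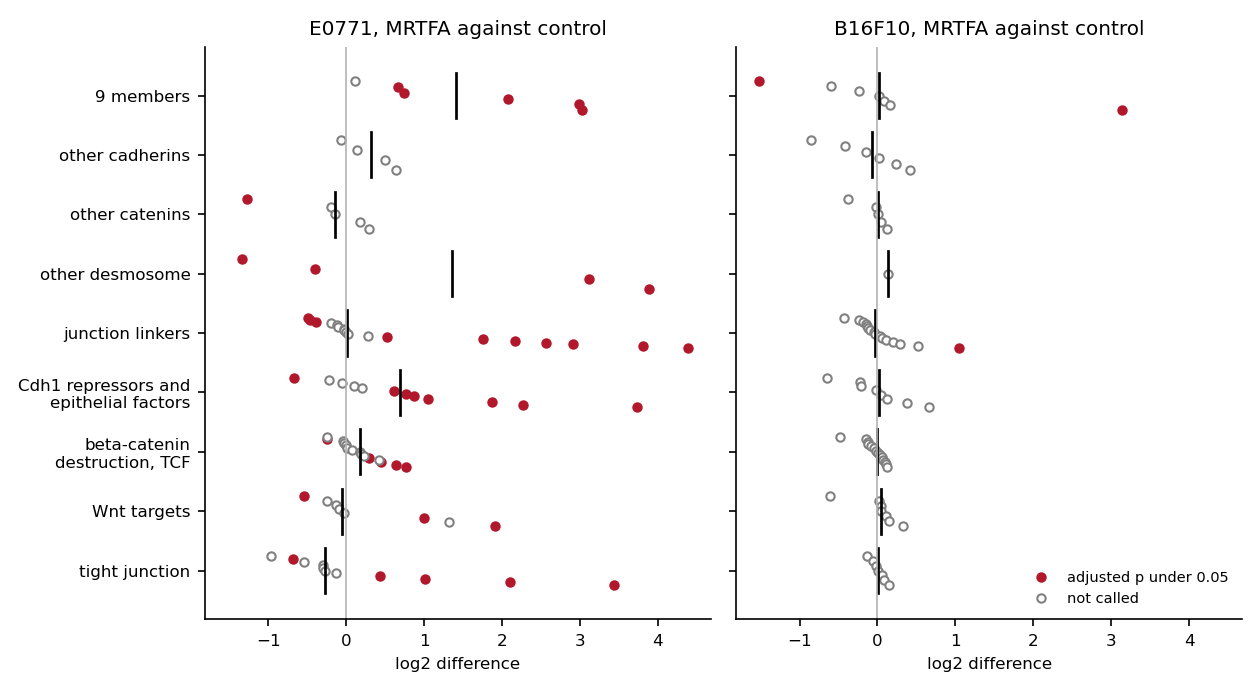
Log2 difference with MRTFA against control for the tested genes of 9 lists, E0771 left and B16F10 right, with red points called at an adjusted p under 0.05 and black bars for list medians. In E0771 called genes lie on both sides of 0 in 6 of the 8 lists beside the 9 genes, and in B16F10 Vcl is the called gene of those lists.

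The genes whose levels across the 9 E0771 libraries were most like those of Jup were Wdr62 (Pearson r = 0.998 on log2 values), Cbr2 (0.997), Synpo2 (0.996), Cd248 (0.995) and Rasl11b (0.994). These libraries fall into MRTFA and the rest, so any gene that rose with MRTFA scores high, and Synpo2, for one, averaged 1364 ± 294 with MRTFA and 109.5 ± 34.4 in controls. Across the 9 B16F10 libraries they were Slit2 (0.983), Mpc1 (0.975), Lmo1 (0.965), Armcx1 (0.964) and Pink1 (0.961). On average each was highest in controls and lowest in libraries labelled MRTFB, the groups of the contrast for which Jup was chosen. Any gene with that order of groups scores high. Slit2 averaged 1181 ± 127 in libraries labelled MRTFA and 844 ± 149 in those labelled MRTFB, against 2867 ± 623 in controls. The lists for the 2 lines are descriptions with no test.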

How the data were processed

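The submitters' processing notes name cutadapt 1.6, STAR 2.5.0a, HTSeq 0.5.3, DESeq and the build mm10, per the labels. The sources used here give no DESeq version, annotation, strandedness or counting mode. The authors deposited a signal per gene which, from its steps, is reads divided by a size factor of each library. All values (100%) were whole multiples of 1 read within 0.001 read, so reads were recovered. No 2 libraries of a group were duplicates (chi-square per degree of freedom 11.7 to 59.2).

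Each line's 9 libraries were fitted together with limma 3.58.1 (trend) on log2(signal + 1), and all 18 for comparisons across lines. Genes needed a signal of at least 10 in 3 fitted libraries. p-values are two-sided and adjusted over all tested genes. edgeR 4.0.16 on recovered reads, pseudocounts of 0.5 and 5, other filters and scalings, a replicate block and leaving out each library were alternatives. The fit was tested on simulated data. The 9 genes and all gene lists were chosen with earlier results of these data known, and other named genes are those called with the lowest adjusted p, up to 4 a list, with Mkl1, Mkl2, Acta2 and the 5 genes most like Jup in each line. Some of these are not reported here. Exon lengths came from GENCODE M21, which held 18827 of the 18909 identifiers. Low counts are given with exact binomial 95% intervals, which cover counting error only, as the labels name no molecular identifiers. As a check of pairing, deviations from group means were correlated across genes between libraries that share a replicate number. In B16F10 the 3 values ran from 0.353 to 0.567 (MRTFA, control) and from 0.382 to 0.486 (MRTFB, control). In E0771 they ran from 0.459 to 0.553 (MRTFB, control) and from 0.134 to 0.474 (MRTFB, MRTFA). These comparisons were read as paired. The p-values and counts given for them, and the fits without 1 library, still come from the fit without a block, except where a block is named. For MRTFA in E0771 (from 0.0842), between controls (from 0.0843) and between lines (from -0.0784) they were not.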

Additional observations from a re-analysis of the deposited data

Results flagged for a closer look

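The effect of MRTFA against control differed between the lines, E0771 minus B16F10, for 5 of the 8 genes tested. In this limma fit on all 18 libraries, 21.1% of all genes tested were called. The difference on the log2 scale was 4.55 for Jup, 2.36 for Cdh2, 0.72 for Ctnna1, 0.58 for Ctnnd1 and 2.98 for Dsp. For Jup both lines passed the test on their own, in opposite directions, but the B16F10 call was lost in 3 of 6 fits that left out 1 library (adjusted p up to 0.0903), and both it and the line difference use the controls of the contrast for which Jup was chosen. For Ctnna1 and Ctnnd1 the gene was called in E0771 and not in B16F10. Cdh2 rests in E0771 on 27 reads with MRTFA and 4 in controls, and Dsp in B16F10 on 3 reads in each group. Dsp passed the filter through the E0771 MRTFA libraries only. Mkl1 was raised in E0771 and not called in the B16F10 libraries labelled MRTFA, and its part in these differences was not tested.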

How the results depend on the processing

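Of 1241 gene values recomputed under alternatives, 1169 kept their direction and side of the threshold, 53 lost the call, 8 gained it, 4 with no test moved by more than the spread between replicates and 7 turned sign, none of the last called in either form. Those 7 were Dsp with MRTFB in E0771 (-0.0035 without control replicate 2, up to 1.6136 without control replicate 3), Ctnna1 in B16F10 labelled MRTFA (-0.0142 without MRTFA replicate 3, -0.0206 without control replicate 1, up to 0.0612 without control replicate 3), the line difference of Ctnnb1 (0.0098 without E0771 MRTFA replicate 1, 0.0047 without B16F10 MRTFA replicate 2, down to -0.1179 without E0771 MRTFA replicate 2) and of Pkp2 (0.0008 with a pseudocount of 5), and Dsp between controls (-0.3405 without E0771 control replicate 3, up to 1.2766 without E0771 control replicate 2). Leaving out 1 library gave 3260 (without MRTFA replicate 2) to 4621 genes called for MRTFA in E0771 (5064 in all libraries), 7 to 15 for MRTFB in E0771 (19), 2571 to 4392 for MRTFB against MRTFA (4430), 37 (without MRTFA replicate 1) to 324 (without control replicate 3) for MRTFA in B16F10 (209, with 0 to 2 of the 9 genes) and 0 (without MRTFB replicate 1 or 2 or control replicate 1) to 129 (without control replicate 3) for MRTFB in B16F10 (17). MRTFA in B16F10 had 324 calls with no filter and 107 at a minimum of 50, where 1 of the 9 genes stayed called. MRTFB had 5 calls in E0771 with the groups compared only, and in B16F10 5 at a minimum of 50 and 6 with TMM. The replicate block gave 33 calls for MRTFB in E0771, 1 of the 9 genes (Pkp2) among them, 855 for MRTFA and 603 for MRTFB in B16F10, all read as paired. It added Cdh2 in B16F10 and, between controls, where numbers were not read as pairs, Jup (adjusted p = 0.0474), and changed no other call of the 9 genes in the comparisons in which they were tested. The cause of these changes was not tested. Depth limits Dsp, Cdh3, Cdh1 and Cdh2 in E0771, and Pkp2 in B16F10.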
